A study of Mus musculus with 3 samples.

Results

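Krt8, Krt18 and Krt19 encode the simple keratins, the intermediate filament proteins of single-layered epithelia. These 3 genes, of the 51923 gene rows in the deposited single-cell count matrix, are described here across embryonic stage, Wls genotype and cell class. They were chosen by name because Krt19 was already known to be higher in the Wls-deleted cells of these same data. Their difference between genotypes is therefore given as a description, without a test. Stage and cell class were compared within control embryos. Control cells were the comparator when Krt19 was chosen, but their stage and class were not part of that choice.

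Keratin filaments are built from pairs of a type II and a type I chain. Krt8 is the type II chain of the pair, and Krt18 and Krt19 are type I chains that can each assemble with it. The filaments are anchored at desmosomes through desmoplakin and lend a cell mechanical strength. Simple keratins are the first keratins made in the embryo, and they are known as markers of the trophectoderm, of gut and other simple epithelia, and of mesothelium such as the epicardium. Early cardiomyocytes, which form an epithelial layer, also carry them.

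All embryos were of the C57BL/6 background and carried Mesp1-Cre, which is active in early mesoderm, and the Cre-dependent red reporter Ai9. Controls carried 1 floxed allele of Wls (Mesp1-Cre; Ai9; Wls fl/+) and are called wildtype in the authors' per-cell table, although they too lose 1 allele in the Mesp1 lineage. Mutants carried both floxed alleles (Wls fl/fl) and are called knockout there. Wls carries Wnt ligands to the cell surface for secretion. Embryos were dissociated, tagged with lipid-anchored MULTI-seq barcodes, and sorted for the reporter, which marks the Mesp1 lineage. Cells that share a barcode form a sample. Whether a barcode held 1 embryo or several is not stated, so that p-values measure the spread between barcodes only.

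There were 14777 cells in 22 samples, 12 control and 10 mutant, with 6 to 2508 cells and 134457 to 61307782 unique molecular identifiers (UMIs, each 1 captured mRNA molecule) per sample. E8.0 had 3 control and 3 mutant samples, E8.5 had 2 and 1, and E9.5 had 6 and 6. One more control, Bar18, has 28 cells and the stage label E7.5, and entered no comparison between groups. The E9.5 control sample Bar6 held 6 cells and is given apart. All E8.0 samples came from 1 sequencing run, all E8.5 samples from another, and E9.5 samples from all 3. The median depth was 23112, 23555 and 11866 UMIs per cell in the runs, and 23 cell barcode sequences occurred in more than 1 library. Wls itself followed the labels, at 35.9 to 65.4 CPM (the UMIs of a gene, scaled to 1000000 UMIs of the sample) in 11 controls and 3.72 to 14.2 CPM in 10 mutants. The E7.5 sample is not among these controls. Fits between genotypes held every sample but that of E7.5, and levels are given for samples of at least 20 cells. Blood cells, which are also of mesodermal origin, made up 27.0% ± 10.0 (SD, n = 3) of control and 14.9% ± 5.97 (n = 3) of mutant cells at E8.0. At E9.5 their share was 33.2% ± 22.8 (n = 5) and 26.8% ± 9.84 (n = 6).

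Krt8 and Krt18 are neighbours on mouse chromosome 15 (GRCm38, GENCODE M21). Krt8 spans chr15:101996698-102004482 on the minus strand and Krt18 spans chr15:102028180-102032027 on the plus strand, so that 23697 bases lie between their 5′ ends and they are read away from each other. Krt19 spans chr11:100140810-100148665 on the minus strand. All 3 are protein coding. Krt8-ps, a processed pseudogene that shares the name of Krt8, had a row of its own with 0 UMIs. Because the levels of Krt8 and Krt18 followed each other across samples, as described below, the bases upstream of both starts are shown, from RefSeq (GRCm38.p6), in the sense of each gene, up to the base before the first annotated start. Capitals mark GCGTG, 1 of the 2 core forms of the hypoxia response element, which was searched because a list of low-oxygen genes is reported below. The other form is ACGTG, and both were searched on both strands.
Krt8, chr15:102004483-102004592, minus strand: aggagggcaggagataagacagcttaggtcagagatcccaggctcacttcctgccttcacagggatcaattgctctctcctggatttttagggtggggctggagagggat
Krt18, chr15:102027966-102028179, plus strand: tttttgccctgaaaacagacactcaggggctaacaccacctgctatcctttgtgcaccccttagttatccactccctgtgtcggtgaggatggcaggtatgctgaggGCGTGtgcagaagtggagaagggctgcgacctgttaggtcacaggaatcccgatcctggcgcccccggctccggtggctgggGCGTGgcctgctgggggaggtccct
The 110 bases of Krt8 hold neither form. ACGTG occurs in 6.67% and GCGTG in 12.1% of all 32851 promoter windows of that length. The 214 bases of Krt18 hold GCGTG at 2 places, 143 and 61 bases before the RefSeq start, and no ACGTG. In windows of that length, GCGTG occurs in 24.3% and ACGTG in 14.0%. A match is a description of the letters only.

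Bar6 had 0 UMIs of Krt8 and of Krt18, which allows up to 22.3 CPM, and 1 UMI of Krt19. The E7.5 sample had 4 UMIs of Krt8, 7 of Krt18 and 0 of Krt19.

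Krt8, the type II partner, had UMIs in all 21 samples of at least 20 cells. At E8.0 its level was 325, 296 and 394 CPM in the controls and 408, 356 and 425 CPM in the mutants. The means were 338 ± 50.3 and 396 ± 35.9 CPM (SD, n = 3 each), and the genotypes overlapped. The E8.5 levels were 131 and 284 CPM for controls and 266 CPM for the lone mutant. The 5 E9.5 controls of at least 20 cells stood at 177, 155, 220, 62.4 and 62.9 CPM. The lowest 2 of them were the controls of run 3. The 6 mutants had a lowest value of 97.0, a median of 286 and a highest value of 369 CPM. Their mean was 260 ± 99.3 CPM against 135 ± 70.5 CPM in the controls, and the groups overlapped.

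Krt18, the type I chain most often paired with Krt8, gave a like picture. E8.0 controls stood at 292, 289 and 379 CPM, beside mutants at 374, 252 and 371 CPM. The E8.5 levels were 128 and 288 CPM for controls and 256 CPM for the lone mutant. E9.5 controls stood at 150, 131, 223, 60.7 and 82.0 CPM, and the mutants lay between 76.5 and 359 CPM. The E9.5 means were 130 ± 63.6 CPM (n = 5) and 222 ± 93.8 CPM (n = 6), with overlap between the genotypes.

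Krt19, a type I chain of simple epithelia that lacks most of the tail domain of other keratins, was the member with separate genotypes. At E8.0 it stood at 8.54, 11.1 and 15.4 CPM in the controls and at 19.0, 19.7 and 22.7 CPM in the mutants. At E8.5 it stood at 18.7 CPM in the larger control and 63.5 CPM in the mutant. The other E8.5 control, of 34 cells, had 2 Krt19 UMIs, or 2.29 CPM, with an exact 95% Poisson interval of 0.277 to 8.28 CPM that covers counting error only. E9.5 controls stood at 23.2, 16.5, 21.6, 17.6 and 14.6 CPM, a narrow range. E9.5 mutants stood at 88.8, 57.6, 97.3, 153, 106 and 113 CPM, and the highest of these was a sample of 57 cells. Every mutant sample lay above every control sample of its stage. How many of all genes separate in this way was not counted. The means were 11.7 ± 3.49 and 20.5 ± 1.99 CPM at E8.0 and 18.7 ± 3.59 and 103 ± 31.3 CPM at E9.5.

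**Figure D1:**
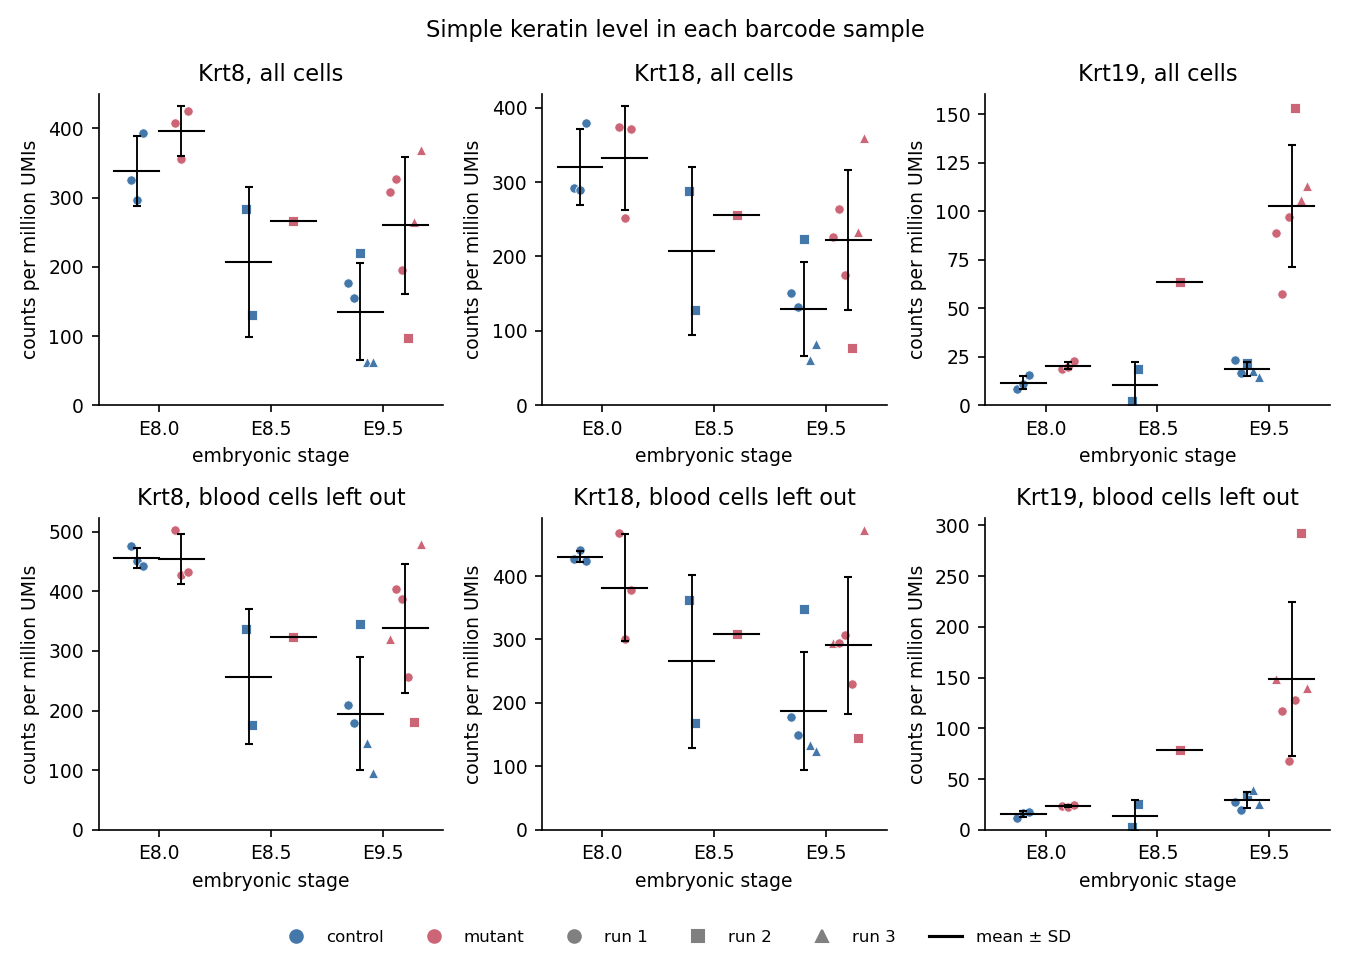
Level of Krt8, Krt18 and Krt19 in each barcode sample of at least 20 cells (CPM, linear axis from 0) by stage and genotype, for all cells (upper row) and with blood cells left out (lower row). Each point is 1 sample, its shape the run, and the bars give the mean and SD. In all cells, Krt19 of the E9.5 mutants sits between 57.6 and 153 CPM, above the controls at 14.6 to 23.2 CPM, whereas Krt8 and Krt18 overlap between genotypes.

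The fitted differences between mutants and controls over all stages, with stage and run in the model, were a log2 fold change of 1.83 (SE 0.23) for Krt19, 0.63 (0.26) for Krt8 and 0.47 (0.26) for Krt18. Among all 18063 genes fitted, 5.94% were called higher and 6.77% lower in mutants at an adjusted p of 0.05. Because the genes were chosen on this contrast, nothing is read from that background for them. At E8.0 alone the log2 differences were 0.73 (SE 0.18) for Krt19, 0.15 (0.10) for Krt8 and -0.02 (0.15) for Krt18. At E9.5 they were 2.41 (0.18), 1.01 (0.38) and 0.83 (0.37). The difference between these stages was not tested, for the same reason.

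The E9.5 samples came from 3 runs, and Krt8 differed in order between them. In run 1 the E9.5 mutants had 195 to 326 CPM of Krt8 against 155 to 177 CPM in the controls. In run 2 the E9.5 mutant had 97.0 CPM against 220 CPM, the opposite order. In run 3 the mutants had 265 and 369 CPM against 62.4 and 62.9 CPM. Krt19 was higher in the mutants in each run, with log2 differences of 1.37, 2.49 and 2.63 in runs 1, 2 and 3 fitted alone with all their stages. For Krt8 the values were 2.13 in run 3 and -0.00 in run 2, and for Krt18 they were 1.83 and -0.17. Depth per cell was lowest in run 3, and its part in these values was not tested.

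In a bulk sum, fewer cells of a type and less mRNA per cell cannot be told apart, and the blood cells carried little keratin. With blood cells left out, a choice made after the data were seen, Krt19 was 29.0 ± 7.81 CPM in E9.5 controls and 149 ± 75.8 CPM in E9.5 mutants. The controls then lay at 19.1 to 39.0 CPM and the mutants at 67.9 to 293 CPM. At E8.0 the same sums gave 12.0 to 17.8 CPM in controls and 22.9 to 24.3 CPM in mutants. Krt8 without blood cells was 456 ± 17.0 and 454 ± 42.0 CPM at E8.0. At E9.5 it was 195 ± 94.3 CPM in controls and 338 ± 108 CPM in mutants. The log2 differences between genotypes over all stages were then 1.74 for Krt19, 0.51 for Krt8 and 0.36 for Krt18.

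Stage was compared in control embryos alone, to ask how the simple keratins change while the heart tube forms and loops. In sums of all cells, the log2 difference of E9.5 minus E8.0 by edgeR's quasi-likelihood test was -1.20 for Krt8 (SE 0.35, 95% interval -1.97 to -0.43, adjusted p = 0.0889) and -1.17 for Krt18 (SE 0.33, -1.88 to -0.45, adjusted p = 0.0761). Krt19 differed by 0.81 (SE 0.33, 0.09 to 1.52, adjusted p = 0.21). None of the 3 passed the threshold, and 3.63% of 17995 genes did. When blood cells were left out, Krt8 (-1.21, adjusted p = 0.0473) and Krt18 (-1.19, adjusted p = 0.0493) passed with nearly the same difference, and Krt19 (0.81, adjusted p = 0.179) did not. Krt8 and Krt18 also passed with a term for run, at adjusted p = 0.0242 and 0.0172, and without the E9.5 control Bar4, at 0.0294 and 0.0128.

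Within cells that carry Tnnt2, the cardiac troponin T of the sarcomere, the 3 genes parted. A cell was put in a class when it had at least 2 UMIs of exactly 1 of Tnnt2 (cardiomyocytes), Wt1 (a transcription factor of proepicardium and mesothelium) and Epcam (an epithelial adhesion molecule). In Tnnt2-positive control cells Krt8 fell from 758, 665 and 650 CPM at E8.0 to between 160 and 431 CPM at E9.5 in 5 samples. Krt18 fell from 626 ± 27.0 CPM to 254 ± 88.8 CPM. Krt19 rose from 22.2, 20.6 and 31.8 CPM to 68.1, 41.0, 121, 92.8 and 59.5 CPM. The stages did not overlap for any of the 3, as for 15.8% of all 11745 genes tested in these cells. By the test, 1.72% were called higher and 0.962% lower at E9.5.

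The log2 differences in these cells were -1.22 for Krt8 (SE 0.23, interval -1.72 to -0.71, adjusted p = 0.0205), -1.27 for Krt18 (SE 0.21, -1.74 to -0.80, adjusted p = 0.0151) and 1.56 for Krt19 (SE 0.33, 0.83 to 2.29, adjusted p = 0.0335) by edgeR's quasi-likelihood test. The rise of Krt19 is 2.96-fold. Cells that met the blood criterion made up 8.67% ± 3.35 of this class at E8.0 and 14.8% ± 16.4 at E9.5. With them left out the differences were -1.19, -1.19 and 1.56, and all 3 passed. In run 1 alone, the only run with both stages, Krt19 differed by 1.08 on the log2 scale and did not pass (adjusted p = 0.0541). These calls were not stable when an E8.0 sample was left out: without Bar24 the adjusted p was 0.104 for Krt8, 0.0708 for Krt18 and 0.142 for Krt19. Without Bar29 it was 0.0995, 0.078 and 0.105, and without Bar26 it was 0.0558 for Krt8 and 0.119 for Krt19. Without the E9.5 sample Bar22, Krt19 had an adjusted p of 0.053. With 1 UMI of Tnnt2 enough for the class, the adjusted p was 0.149 for Krt8, 0.134 for Krt18 and 0.069 for Krt19. Wt1-positive cells reached 10 cells in 0 E8.0 control samples and Epcam-positive cells in 1, so their stages were not compared.

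**Figure D2:**
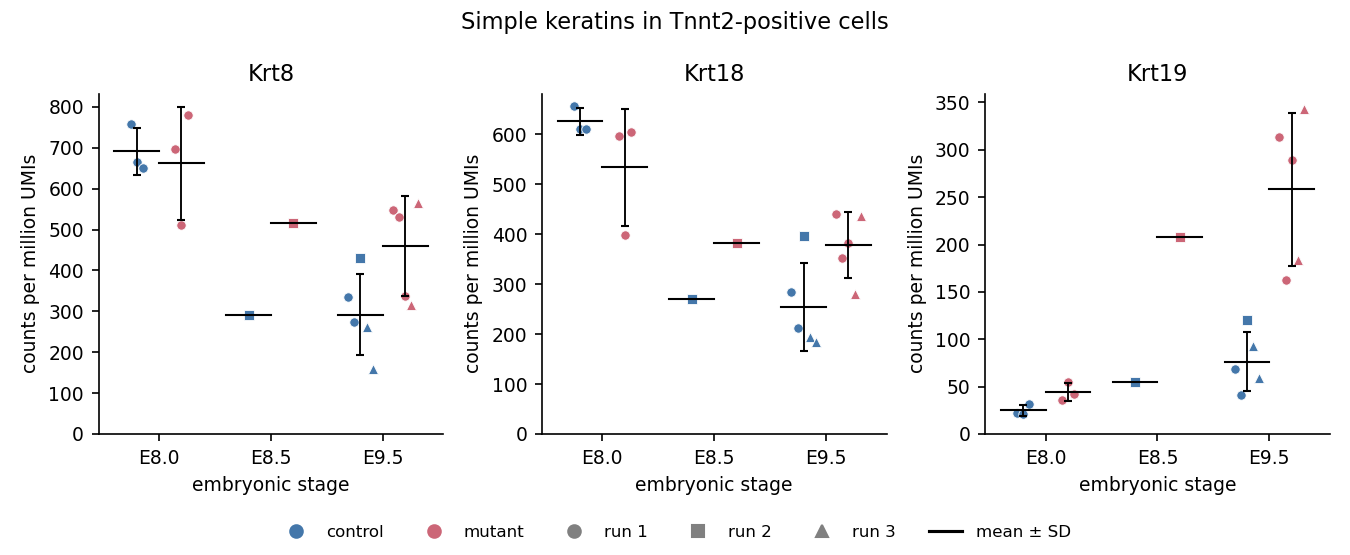
Level of each keratin in Tnnt2-positive cells (CPM, linear axis from 0) by stage and genotype, 1 point per sample with at least 10 such cells, its shape the run, and bars for the mean and SD. In controls Krt8 goes from 691 ± 58.5 CPM at E8.0 to 292 ± 99.8 CPM at E9.5 while Krt19 goes from 24.9 ± 6.05 to 76.4 ± 31.0 CPM.

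Marker classes were compared within control samples, with the barcode sample as a block, to ask where the simple keratins are made. The fits held sums of at least 10 cells from control samples of all 3 stages, namely 9 Tnnt2-positive, 4 Wt1-positive, 5 Epcam-positive and 10 triple-negative sums. The E9.5 samples among them held 625 Tnnt2-positive, 93 Wt1-positive, 57 Epcam-positive and 4858 triple-negative cells, the last having fewer than 2 UMIs of each marker. Stages were not held evenly: E8.0, E8.5 and E9.5 gave 0, 1 and 3 Wt1-positive and 1, 1 and 3 Epcam-positive sums. They gave 3, 1 and 5 Tnnt2-positive sums, so contrasts between these classes also differ in stage. The classes were checked against lists from which the selecting markers were removed. The cardiomyocyte list then summed to 9130 to 53150 CPM in Tnnt2-positive and 62.9 to 225 CPM in triple-negative control sums, the proepicardial list to 618 to 690 CPM in Wt1-positive against 62.5 to 328 CPM, and the epithelial list to 442 to 1200 CPM in Epcam-positive against 27.4 to 64.8 CPM. Epcam-positive cells were mixed, since endoderm genes in them ranged from 92.3 to 8517 CPM. Proepicardial genes were also high in Tnnt2-positive cells. Of 13 tested, the selecting marker not removed, 10 were called higher in Wt1-positive and 9 in Tnnt2-positive than in triple-negative cells. The shares of all genes were 5.66% and 21.7%. Set against Tnnt2-positive cells, 8 of 13 were higher in Wt1-positive cells, beside 2.00% of all genes.

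The triple-negative class includes blood cells, which made up 33.0% ± 18.8 of it in the 10 control samples. Cells that met the same blood criterion also lay in the other classes of controls, at 11.5% ± 12.4 of Tnnt2-positive (highest 40.3%), 11.7% ± 20.0 of Wt1-positive (highest 41.7%) and 13.7% ± 18.1 of Epcam-positive cells (highest 45.0%). Doublets were not called. All 8 blood genes were lower in each of the marker-positive classes, with median log2 differences of -2.50 in Tnnt2-positive, -5.50 in Wt1-positive and -4.88 in Epcam-positive cells. The fits were therefore also made with blood cells left out of every class, an alternative chosen after the data were seen.

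Tnnt2-positive cells had more of all 3 keratins than triple-negative cells. The log2 differences were 1.50 for Krt8 (SE 0.17, adjusted p = 1.27e-07), 1.37 for Krt18 (SE 0.15, adjusted p = 5.21e-08) and 2.33 for Krt19 (SE 0.24, adjusted p = 2.52e-08) by edgeR. Cardiomyocytes differ from the rest in much of the transcriptome, and 21.7% of genes were called higher. With blood cells left out the differences were 1.22, 1.10 and 2.05, and all 3 passed. Epcam-positive cells were likewise higher in all 3, with 1.84 for Krt8 (SE 0.22, adjusted p = 3.5e-06), 2.15 for Krt18 (SE 0.19, adjusted p = 2.9e-08) and 2.57 for Krt19 (SE 0.39, adjusted p = 9.24e-05), while 5.39% of genes were called higher. Without blood cells these were 1.56, 1.79 and 2.20, and all 3 passed.

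Wt1-positive cells were higher than triple-negative cells in Krt18 (1.31, SE 0.21, adjusted p = 0.000182) and in Krt8 (0.92, SE 0.26, adjusted p = 0.0195), with 5.66% of genes called higher. With blood cells left out Krt18 passed (1.04, adjusted p = 0.00109) and Krt8 did not (0.65, adjusted p = 0.111). The Krt8 call was also lost without Bar23 (adjusted p = 0.102), Bar3 (0.0687) or Bar9 (0.0625). Krt19 differed by 0.91 in these cells, with an interval of -0.08 to 1.89 and an adjusted p of 0.253. That interval holds 0. When a cell could belong to several classes, Krt19 differed by 1.68 and passed (adjusted p = 0.00162), and it passed without the low-count filter (0.70, adjusted p = 0.0189). Without blood cells it differed by 0.69 (adjusted p = 0.421).

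Set against Tnnt2-positive cells, Wt1-positive control cells had a Krt8 difference of -0.58 (SE 0.26, adjusted p = 0.206) and a Krt19 difference of -1.43 (SE 0.44, interval -2.35 to -0.51, adjusted p = 0.0516). Krt18 differed by -0.06 (SE 0.22, interval -0.52 to 0.39, adjusted p = 0.935). None of the 3 passed, with 6.98% of genes called in either direction. Without blood cells the Krt19 difference passed (-1.36, adjusted p = 0.0288). Epcam-positive cells had more Krt18 than Wt1-positive cells (0.84, SE 0.24, adjusted p = 0.0464, 2.01% of genes called higher), a call lost without blood cells (0.75, adjusted p = 0.0559) and without Bar23 (0.226), Bar24 (0.0504), Bar3 (0.246) or Bar9 (0.0952). Krt8 (0.92, adjusted p = 0.071) and Krt19 (1.66, SE 0.52, adjusted p = 0.0711) did not pass there.

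The genotype values within classes describe where the Krt19 difference was seen at E9.5. In Tnnt2-positive cells Krt19 stood at 68.1, 41.0, 121, 92.8 and 59.5 CPM in controls and at 314, 162, 289, 343 and 183 CPM in mutants. In Wt1-positive cells its level was 31.5, 21.6 and 13.7 CPM in 3 controls, beside 163, 72.8, 221 and 344 CPM in 4 mutants. In Epcam-positive cells it was 32.5, 115 and 153 CPM against 244 and 260 CPM. Triple-negative cells had 9.01 ± 5.82 CPM in 5 controls and 51.2 ± 19.4 CPM in 6 mutants. In these samples of at least 10 cells of the class, the genotypes did not overlap in any of the 4 classes. Krt19 was chosen on this contrast, and the share of all genes that separate so was not counted. Mutant sums of fewer cells did reach the control range, at 73.9 CPM in Tnnt2-positive cells of Bar5 (4 cells), 24.2 CPM in Wt1-positive cells of Bar8 (3 cells), and 104 and 139 CPM in Epcam-positive cells of Bar19 and Bar8 (7 and 5 cells). With blood cells left out, triple-negative cells had 12.8 ± 6.80 CPM in controls and 86.3 ± 54.9 CPM in mutants, again with no overlap. Epcam-positive cells did overlap then, at 34.3 to 253 CPM in controls and 244 to 308 CPM in mutants. Tnnt2-positive cells (43.9 to 125 and 166 to 372 CPM) and Wt1-positive cells (21.6 to 32.3 and 72.8 to 221 CPM) did not. With blood cells kept, the fitted log2 differences were 2.11 (SE 0.25) in Tnnt2-positive and 2.96 (0.40) in Wt1-positive cells. They were 1.85 (0.51) in Epcam-positive and 2.24 (0.30) in triple-negative cells. Among all genes fitted in Tnnt2-positive cells over the stages, 2.54% were called in either direction.

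In samples of at least 10 cells of the class, Krt8 and Krt18 overlapped between genotypes in Tnnt2-positive cells at E9.5. Krt8 there was 160 to 431 CPM in controls and 315 to 566 CPM in mutants, and Krt18 was 184 to 397 CPM and 279 to 440 CPM. The highest control of both was Bar4 of run 2, a run without a mutant sum of that size. Within run 1 and within run 3, each mutant lay above each control in both genes. With run in the model, the log2 differences in these cells were 0.83 (SE 0.20) for Krt8 and 0.76 (SE 0.14) for Krt18. In Wt1-positive cells Krt8 was 161 to 245 CPM in controls and 270 to 828 CPM in mutants, whereas Krt18 overlapped, at 254 to 275 and 270 to 531 CPM. In Epcam-positive cells Krt8 was 292 to 477 CPM in the 3 controls and 758 and 1077 CPM in the 2 mutants. Krt18 there was 301 to 553 CPM in controls and 928 and 1065 CPM in mutants. Those few sums did not overlap, but Krt8 of 390 CPM in the mutant Bar8, with 5 such cells, lay within the control range. At E8.0, Tnnt2-positive cells had Krt19 at 24.9 ± 6.05 CPM in controls and 35.4, 54.6 and 42.7 CPM in mutants. Krt8 stood then at 691 ± 58.5 and 662 ± 138 CPM. Krt18 lay lower in the mutants there, at 399 to 605 CPM against 610 to 657 CPM. Its fitted log2 difference was -0.25, with an interval of -0.56 to 0.06. With blood cells left out Krt18 overlapped, at 411 to 647 CPM in mutants and 585 to 763 CPM in controls. E8.0 triple-negative cells overlapped between genotypes in Krt19, at 6.11 ± 1.74 and 8.49 ± 1.84 CPM. Krt8 did not overlap there, at 149 to 262 CPM in controls and 269 to 299 CPM in mutants. With blood cells left out Krt8 overlapped, at 258 to 373 and 294 to 371 CPM.

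**Figure D3:**
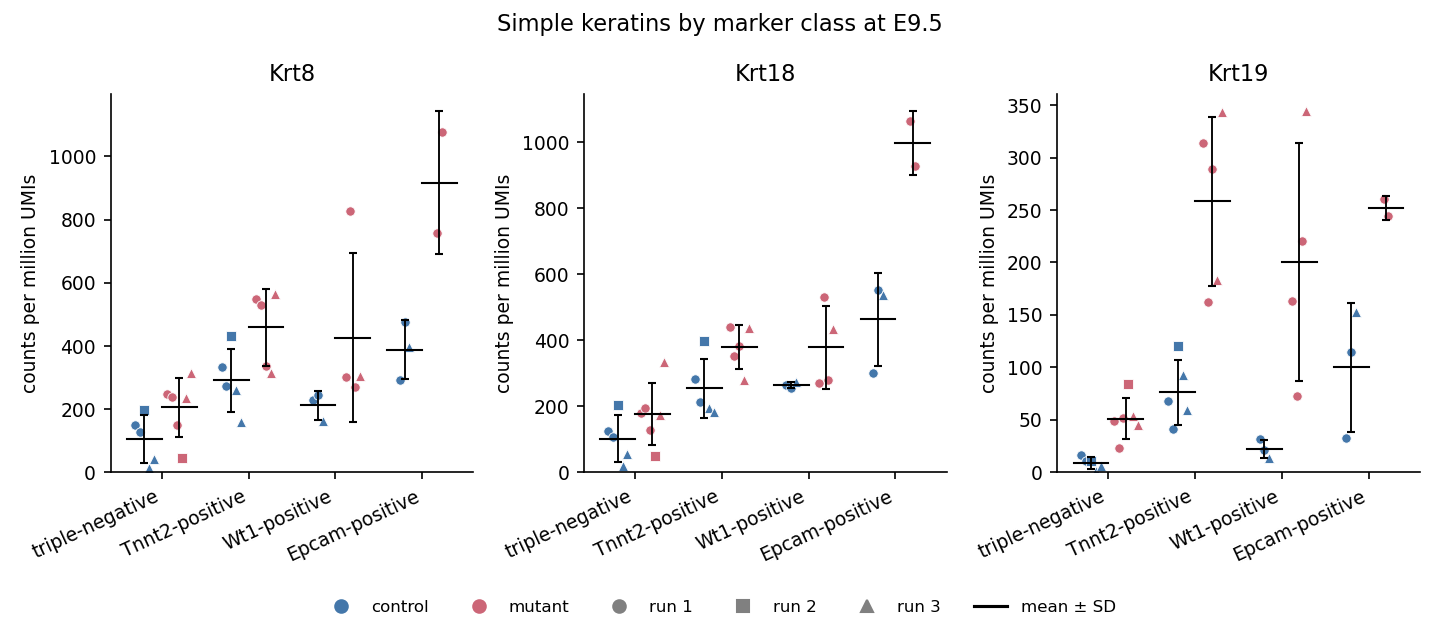
Level of each keratin by marker class at E9.5 (CPM, linear axis from 0), controls and mutants side by side, 1 point per sample with at least 10 cells of the class, its shape the run, and bars for the mean and SD. Krt19 of mutants lies above that of controls in every class, as in Wt1-positive cells with 72.8 to 344 CPM against 13.7 to 31.5 CPM.

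The Krt19 UMIs were also counted by class. In E9.5 controls, a mean of 45.7% came from Tnnt2-positive, 39.7% from triple-negative, 8.82% from Epcam-positive and 2.39% from Wt1-positive cells, and 3.48% from cells with several markers. In mutants the means were 32.1%, 38.9%, 5.47% and 11.8%, and 11.8% came from cells with several markers, among which doublets were not called. With 1 sample left out, the Tnnt2-positive mean of the controls ranged from 38.6% (without Bar7) to 50.5% (without Bar23). That of the mutants ranged from 26.5% (without Bar8) to 38.1% (without Bar5). The Wt1-positive mean of the mutants was 7.35% without Bar5, which had 4 such cells, and the Epcam-positive mean was 3.44% without Bar20. The triple-negative UMIs include any from free RNA, as the blood cells described below hold them too. Wt1-positive cells made up 1.48% ± 0.601 of E9.5 control and 4.09% ± 1.94 of E9.5 mutant cells. Tnnt2-positive cells made up 12.0% and 12.5%.

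The share of cells with a keratin UMI was compared after each cell was thinned to 5000 UMIs, which left out 362 shallower control and 82 mutant cells. At E9.5 Krt19 was found in 6.65% ± 0.862 of control and 23.4% ± 6.39 of mutant cells. Without thinning the shares were 12.5% and 31.7%. Krt8 was found in 22.0% and 34.8% of thinned cells, and Krt18 in 24.6% and 33.7%. Among Tnnt2-positive cells, a mean of 23.1% of control and 50.8% of mutant cells held a Krt19 UMI. In Wt1-positive cells it was 7.56% ± 1.14 and 40.1% ± 23.6, and in triple-negative cells 3.77% ± 1.67 and 15.4% ± 5.64. In Epcam-positive cells the shares overlapped, at 29.4% ± 26.9 and 31.5% ± 5.97.

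Blood cells, which should lack keratins, were taken as the background from free RNA. Some of the cells so called were positive for Tnnt2, Wt1 or Epcam, so their share is not a clean background, and those with none of the 3 markers are given as well. Pooled over samples, 1.99% of 2267 control and 5.78% of 900 mutant blood cells held a Krt19 UMI after thinning, with median depths of 26384 and 24724 UMIs before it. The other cells held one in 7.16% of 7195 control and 17.0% of 3943 mutant cells, at median depths before thinning of 21663 and 20113 UMIs. Of blood cells with none of the 3 markers, 1.09% of 2114 control and 2.88% of 834 mutant cells held a Krt19 UMI, at median depths of 26537 and 24861 UMIs. For Krt8 the pooled shares were 8.47% and 13.8% of blood cells and 31.6% and 45.8% of other cells. For Krt18 they were 9.04% and 14.1% of blood cells and 34.0% and 44.4% of other cells. At E9.5 the blood cell share of Krt19 was 1.97% ± 1.62 in controls and 8.07% ± 10.1 in mutants, where it ran from 0 to 25.8%. The share in triple-negative control cells, 1.56% to 5.82%, overlapped that of control blood cells, 0 to 4.04%. In mutants the triple-negative share, 8.85% to 25.6%, likewise overlapped that of blood cells. Most blood cells are themselves part of the triple-negative class. With them left out its shares were 2.86% to 7.12% in controls and 10.6% to 45.5% in mutants. Blood cells with none of the 3 markers held 0 to 1.78% in controls, below that range, and 0 to 10.9% in mutants, which overlapped it. The triple-negative shares are not read as expression. In Wt1-positive mutant cells the lowest share, 16.7%, lay within the range of all mutant blood cells and above that of blood cells with no marker.

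Cells with 1 of the mRNAs often held another. Over 19 samples, 67.9% ± 10.8 of cells with a Krt18 UMI also had Krt8, against 16.4% ± 6.60 of cells without Krt18. Of cells with Krt19, 81.4% ± 8.89 had Krt8 or Krt18, against 39.1% ± 14.0 of cells without Krt19. These shares were counted on cells thinned to equal depth. Blood cells with few keratins are among the cells without Krt18 or Krt19. The ratio of Krt8 to Krt18 UMIs was 1.11 ± 0.144 over samples, a ratio of counts with no correction for length.

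Of 16 other intermediate filament genes tested in all control cells, 3 passed by stage, beside the 3.63% of all genes given above, and 13 did not. Between E8.0 and E9.5, Nes, the nestin of progenitor cells and young muscle, rose (log2 1.34, adjusted p = 0.00761) and Krt10 rose (0.51, adjusted p = 0.0236), whereas Ina, a neuronal filament, fell (-1.72, adjusted p = 0.00746). In Tnnt2-positive cells 3 of 12 passed, beside 1.72% of all genes called higher, and these were Krt20 (2.65, adjusted p = 0.0288), Nes (2.37, adjusted p = 0.00455) and Des, the muscle filament desmin (1.91, adjusted p = 0.0382), all of which rose. Krt7, another type II simple keratin, was higher in Epcam-positive than in triple-negative cells (3.42, adjusted p = 2.68e-08) and than in Wt1-positive cells (3.10). Of other keratins, Krt10 (20.3 CPM), Krt7 (6.01), Krt26 (2.19), Krt15 (1.94) and Krt222 (1.35) had a mean of at least 1 CPM, and 45 of the 55 keratin rows had any UMI. With 1 sample left out in turn, the calls of Krt10 and Des by stage held in 5 of 10 and 3 of 8 fits, that of Krt20 by stage was lost without Bar24, Bar26 or Bar29, that of Nes in all cells without Bar24 and that of Ina without Bar29.

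A list of keratin partners, from the desmosome plaque, the cytolinkers and the trichoplein group, was compared in the same cells. Against triple-negative cells, 10 of 13 tested partners were higher in Tnnt2-positive cells, where 21.7% of all genes were, among them Dsp, the desmoplakin that binds keratin and desmin (2.32), Pkp2, a plakophilin of cardiac desmosomes (2.21), Jup, plakoglobin (2.18) and Perp (2.05). In Wt1-positive cells 4 of 13 were higher (5.66% of all genes), namely Dsg2, Dsp, Dsc2 and Jup. Of these, Dsg2 stayed past the threshold whichever sample was left out, and the other calls were lost without Bar23 and, in part, without Bar22 or Bar3. In Epcam-positive cells 5 of 13 were (5.39% of all genes), including Perp (3.14), Dsg2, a desmosomal cadherin (2.21), and Jup (1.48). With blood cells left out the counts were 8, 1 and 3 of 13, in the order Tnnt2-positive, Wt1-positive and Epcam-positive, and the 1 in Wt1-positive cells was Dsg2. The shares of all genes called higher were then 21.9%, 3.77% and 3.88%. In Tnnt2-positive cells Dsp also rose from E8.0 to E9.5 (1.83, adjusted p = 0.00323), the 1 call among 13 partners. With 1 UMI of Tnnt2 enough for the class it was 1.04 and did not pass (adjusted p = 0.0875). Pkp2 fell in all control cells summed (-0.73, adjusted p = 0.0451), a call that held in 1 of 10 fits with a sample left out.

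Between genotypes, 5 of 15 partners passed the test in all cells summed, and all 5 were higher in mutants, where 5.94% of all genes were. They were Dsc2 (0.66, adjusted p = 0.0377), Dsp (0.63, adjusted p = 0.00762), Pkp2 (0.58, adjusted p = 0.00673), Dsg2 (0.57, adjusted p = 0.00378) and Jup (0.56, adjusted p = 0.0061), and the list median was 0.19 beside 0.02 over all genes. With blood cells left out 5 of 15 passed as well, although Dsc2 did not (0.54, adjusted p = 0.0817), and its call held in 12 of 21 fits with a sample left out. In Tnnt2-positive cells 0 of 13 passed with edgeR, where 2.54% of all genes did in either direction. Of these partners 3 had an unadjusted p under 0.05 with edgeR, as did 2530 of all 14229 genes in these cells, and 2 passed with DESeq2. In triple-negative cells Dsg2, Jup and Pkp2 passed over all stages, where 10.4% of all genes did in either direction. Krt222, a keratin outside the lists, rose as well (0.93, adjusted p = 0.0277). Of 16 other filament genes, 1 rose, the mesenchymal filament Vim (0.34, adjusted p = 0.00673), and 3 fell, namely Krt15 (-2.07), Nefm (-0.64) and Krt10 (-0.23). The share of all genes called lower was 6.77%. The Krt15 difference rested on the control Bar22, without which it was -0.25, and the call of Nefm held in 10 of 21 fits with a sample left out. Krt15 and Vim no longer passed when blood cells were left out, at -0.38 (adjusted p = 0.343) and an adjusted p of 0.0862.

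**Figure D4:**
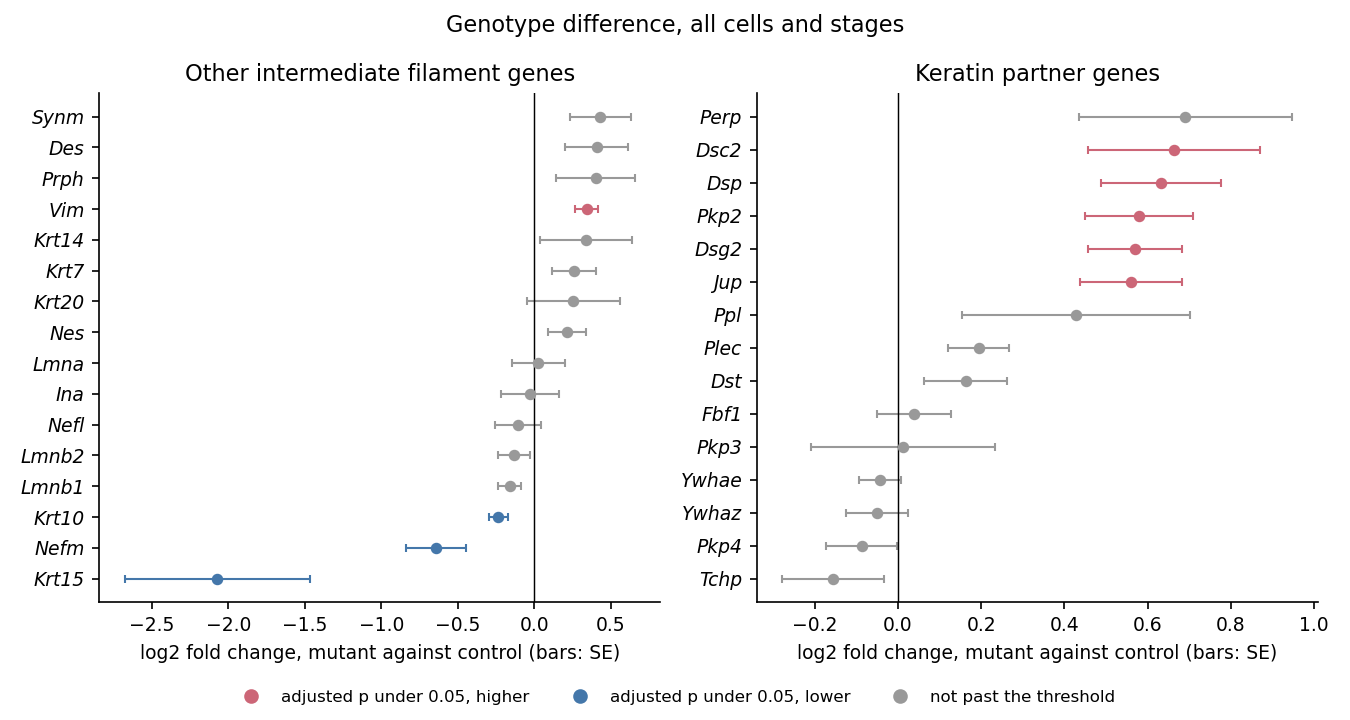
Fitted log2 difference, mutant minus control over all stages, with SE, for other intermediate filament genes and keratin partner genes in sums of all cells; colour marks those past the threshold. The desmosome genes Dsp, Dsc2, Dsg2, Pkp2 and Jup lie between 0.56 and 0.66, and Krt15 lies at -2.07.

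Lists for other cell types give what else differed with genotype in all cells summed. Beside them, 5.94% of all genes were called higher and 6.77% lower over all stages, and 5.71% were called higher at E9.5 alone. By edgeR, an unadjusted p under 0.05 was found for 4717 of 18063 genes over all stages. At E9.5 alone it was found for 4531 of 17227 genes. These 2 counts are in either direction. No share of all genes is given here for the DESeq2 counts. Of the epithelial identity list 0 of 20 genes passed with edgeR or with DESeq2, and 6 had an unadjusted p under 0.05. At E9.5 alone 1 of 18 passed with edgeR and 1 with DESeq2, 12 had an unadjusted p under 0.05, and the median was 0.68. The edgeR call was Cldn3, a tight junction claudin (1.20, adjusted p = 0.0125). The summed level of the list ranged from 34.0 to 73.7 CPM in E9.5 controls and from 19.4 to 119 CPM in mutants. None of 13 endoderm, 5 surface ectoderm, 4 notochord, 7 endothelial or 6 neural genes passed with edgeR over all stages. Unadjusted p-values under 0.05 numbered 1, 0, 0, 2 and 0 in these lists, and DESeq2 called 2 endothelial genes and none of the others. At E9.5 alone 1 of 10 endoderm genes passed, Spink1 (3.55, adjusted p = 0.0407), 5 had an unadjusted p under 0.05, and DESeq2 called 0. Over all stages, of 3 trophoblast genes 1 rose, Plet1 (0.90, adjusted p = 0.0192; lost without Bar1 or Bar3), and of 8 blood genes 1 fell, Klf1 (-0.80, adjusted p = 0.0457), which held in 5 of 21 fits with a sample left out.

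Lists of the heart and its covering are given over all stages and by stage. The difference between stages was not tested. Of 16 proepicardial genes, 1 rose over all stages, near the 5.94% of all genes called higher. It was the heart transcription factor Tbx5 (0.51, adjusted p = 0.0052), and DESeq2 called 6. At E9.5 alone 7 of 16 rose, led by the urothelial and mesothelial genes Upk1b (1.77) and Upk3b (1.27), Wt1 (1.28) and Bnc1 (1.08), beside 5.71% of all genes called higher there. At E8.0 alone 0 passed with edgeR or DESeq2 and 4 had an unadjusted p under 0.05. The E8.0 fit, with 3 samples a group, called 4 of 16416 genes in all, or 0.0244%. An unadjusted p under 0.05 was found for 1615 of those 16416 genes. Of 16 cardiomyocyte genes 6 rose over all stages, where 5.94% of all genes did, and DESeq2 called 3. With blood cells left out 3 rose. The largest of the 6 were Nppa (1.45), Myh7 (1.06), Myl3 (1.02) and Myl2 (0.95), whose calls held in 7, 13, 12 and 16 of 21 fits with a sample left out. At E9.5 alone 2 of 16 rose, Pln (0.91) and Ryr2 (0.61), with a list median of 0.35. At E8.0 alone the median was 0.76, where 0 passed with edgeR, 13 had an unadjusted p under 0.05 and DESeq2 called 7. The part of these lists in the Krt19 difference was not tested.

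All 16 genes of a list of low-oxygen response targets rose in the mutants, where 5.94% of all genes did, with a median log2 difference of 1.51. The list was chosen with earlier results of these data known, so its count is a description and not a test. All 16 also rose with blood cells left out. The largest were Bhlhe40 (2.66), Ndufa4l2 (2.49), Ddit4 (2.28) and Ier3 (2.19). The summed level of that list was 2340 to 3626 CPM in E9.5 controls and 4660 to 6406 CPM in E9.5 mutants, with no overlap. At E8.0, in the fit that called 4 genes in all, 0 of 16 passed with edgeR or DESeq2, and the median was 0.25. An unadjusted p under 0.05 was found for 1 of the 16, beside 1615 of all 16416 genes. In Tnnt2-positive cells over all stages 13 of 16 rose, beside 2.54% of all genes called in either direction. The part of this list in the Krt19 difference was not tested.

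Genes whose level across samples was most like that of Krt19 were sought among 8328 genes with a mean of at least 10 CPM, over 21 samples. The Pearson r of log2(CPM + 1) was 0.968 for Ikbip, 0.954 for Wipi1, 0.950 for Wwtr1, 0.949 for S100a11, 0.947 for Pgm1, 0.946 for Gm2a, 0.935 for 2610005L07Rik and 0.932 for P4ha2. For Ikbip, Spearman's rho was 0.927, and r was 0.953 without the 2 samples farthest from the median (Bar18 and Bar5). Over the 11 controls alone, with the E7.5 sample Bar18 among them, r was 0.967. Samples share a run, a stage and a genotype, so these values describe likeness only. Krt8 ranked 1899 in this list (r 0.47, and 0.14 without those 2 samples) and Krt18 ranked 2436.

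The closest gene to Krt8 was Krt18 (r 0.987, rho 0.947, and 0.966 without Bar18 and Bar7), its neighbour on chromosome 15 and its filament partner. Cgnl1, a paracingulin of cell junctions (0.974), Rbpms (0.958), Hand1, a transcription factor of early heart and extraembryonic mesoderm (0.956), and Slc16a1 (0.952) came next. Without Bar18 and Bar7, r was 0.933 for Cgnl1, 0.868 for Rbpms, 0.860 for Hand1 and 0.845 for Slc16a1.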

How the data were processed

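The deposited matrix holds raw UMI counts per gene and cell, with no normalization by the authors, as its whole numbers show. Reads were mapped with kallisto and bustools 0.46.1 to GRCm38, and Cell Ranger is named as well, per the submitters' processing notes. How strand was counted and how cells were filtered is not given in the sources used here. The authors' per-cell table gives run, MULTI-seq barcode, stage and condition as deposited labels. 

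Counts were summed per barcode, for all cells and for marker classes (at least 2 UMIs of the marker, at least 10 cells per sum), after each cell was assigned by that table. The tool was edgeR 4.0.16 under R 4.3.3. Low genes were removed with filterByExpr, libraries scaled by TMM, and the two-sided quasi-likelihood F test adjusted by Benjamini-Hochberg over every gene tested, at a threshold of 0.05. DESeq2 1.42.0, other filters and marker thresholds, runs alone and samples left out were alternatives. Levels are CPM of the summed counts, and SDs are over barcodes. Blood cells had over 20 UMIs of at least 2 of 8 blood markers. Doublets were not called, and cells with several markers were kept as a class of their own. On counts simulated for the Tnnt2-positive stage comparison over 11745 genes, 74% of genes changed by a log2 of 1 and 97% of those changed by 2 were recovered. The simulated counts left out the further spread that the quasi-likelihood fit estimates, so recovery in the real samples may be lower.

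The genes named beside the members were, of each of 13 lists, up to 4 past the threshold with the largest change, keratins with a mean of at least 1 CPM, and the genes most like Krt19 and Krt8. The members and lists were chosen with earlier results of these data known. GENCODE M21 gave positions. Krt8 and Krt18 were matched in the RefSeq promoter table, and Krt19 was named only.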

Additional observations from a re-analysis of the deposited data

Results flagged for a closer look

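Among 21 groups of 4 to 10 samples examined for a single distant sample, 1 was picked out, and chance picks about 1 in 20 such groups. It was Krt8 in Wt1-positive cells of E9.5 mutants. Sample Bar20, with 18 such cells, stood at 828 CPM, while the other samples stood at 303, 270 and 305 CPM. Krt19 of Bar20 was 72.8 CPM in the same cells, the lowest of the 4 mutants.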

How the results depend on the processing

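No paired analysis was possible because the labels give the samples no shared replicate numbers across genotypes or stages. The log2 differences of Krt8, Krt18 and Krt19 between genotypes kept their direction and stayed within the spread of samples in 63 of 63 fits with 1 sample left out. They moved when run 3 was fitted alone (Krt8 2.13, Krt18 1.83, Krt19 2.63), for Krt19 in run 2 alone (2.49), where Krt18 turned to -0.17 and Krt8 to -0.00, and for Krt19 at E8.0 alone (0.73). Between stages in all control cells, Krt8 and Krt18 came past the threshold without the low-count filter (-1.16, -1.13), with a run term (-1.06, -1.21), in run 1 alone (-1.07, -1.23), over both genotypes (-0.82, -0.80; Krt19 there 1.63) and without blood cells (-1.21, -1.19). With 1 sample left out, the ranges were -1.49 to -1.02 for Krt8 and -1.50 to -1.03 for Krt18. In Tnnt2-positive cells the stage calls were lost with 1 UMI of the marker (Krt8 -1.06, Krt18 -1.11, Krt19 1.47) and, for Krt19, in run 1 alone (1.08). With 1 sample left out they ranged from -1.40 to -1.07, -1.48 to -1.17 and 1.30 to 1.81.

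Wt1-positive against triple-negative cells, Krt8 lost its call without blood cells (0.65), in E9.5 samples alone (0.98), with 3 UMIs (0.63) or 5 UMIs (0.50) of the marker, and ranged from 0.78 to 1.02 with 1 sample left out. Krt19 passed there without the filter (0.70) and with overlapping classes (1.68). Against Tnnt2-positive cells, Krt18 reversed in E9.5 samples alone (0.084), with 1 UMI (0.021) and with overlapping classes (0.088), Krt8 passed without the filter (-0.70), and Krt19 passed without blood cells (-1.36), with DESeq2 (-1.57), 20 cells per class (-1.44), 3 UMIs (-1.89) and no filter (-1.54), with -1.51 to -1.36 when 1 sample was left out. Epcam-positive against Wt1-positive cells, Krt18 lost its call without blood cells (0.75), in E9.5 samples alone (0.82), with 20 cells (0.65), 1 UMI (0.025) and overlapping classes (0.72), and ranged from 0.72 to 0.96. Krt8 reversed with 1 UMI (-0.040) and passed with 5 UMIs (1.56) or no filter (0.88), range 0.81 to 1.04. Krt19 passed with DESeq2 (1.74) or no filter (1.62), range 1.25 to 2.03. Among other genes, Krt20 (-4.72, 5 UMIs) and Nefm (0.65, 1 UMI) reversed in Epcam-positive cells, and Nefm reversed between genotypes at E8.0 alone (0.029). The cause was not tested.

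Between stages in all control cells the number of genes called was 653, and 4251 over both genotypes, 1077 in run 1, 1015 with a run term and 99 to 769 with 1 sample left out. In Tnnt2-positive cells it was 315, and 567 with DESeq2, 777 with 3 UMIs, 1047 without the filter, 509 in run 1 and 29 to 401 with 1 left out. For genotype it was 2295, and 4 at E8.0, 2, 27 and 58 in runs 1, 2 and 3, and 1409 to 2723 with 1 left out. Tnnt2-positive against triple-negative cells gave 5039, and 3192 with 1 UMI. Wt1-positive against triple-negative cells gave 1336, and 677 without blood cells, 880 at E9.5, 822 with 3 UMIs, 829 with 5, 2738 without the filter, 3076 with overlapping classes and 737 to 1507 with 1 left out. Epcam-positive against triple-negative cells gave 1179, and 673 without blood cells, 603 at E9.5, 560 with 20 cells and 3322 without the filter. Wt1-positive against Tnnt2-positive cells gave 818, and 1469 without the filter and 482 to 971 with 1 left out. Epcam-positive against Wt1-positive cells gave 493, and 308 at E9.5, 221 with 20 cells, 998 without the filter, 954 with overlapping classes and 259 to 552 with 1 left out.

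The shares of E9.5 cells with a UMI follow depth. For Krt8 they were 36.3% in controls and 47.6% in mutants without thinning, 27.0% in mutants at 2500 UMIs, and 11.9% and 22.5% with at least 2 keratin UMIs. For Krt18 they were 39.7% and 46.4%, 17.6% and 23.3%, and 13.1% and 20.9% in this order, and for Krt19 12.5% and 31.7%, 3.85% and 16.4%, and 2.43% and 12.4%.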
